A study of Danio rerio with 6 samples.

Results

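The splicing and RNA-binding factors described here were 137 zebrafish genes, of 8793 genes with a probe set that names 1 gene symbol, whose symbol starts with snrp, srsf, sfrs, sf3, hnrnp, lsm and a digit from 1 to 9, prpf, u2af, ddx, dhx or rbm. They were read by 181 probe sets, and each gene was represented by its brightest probe set. By name they fell into 10 families, with 11 U snRNP (snrp) genes, 11 Lsm genes, 9 SF3 genes, 2 U2 auxiliary factor genes, 11 Prp factors, 13 SR protein genes, 19 hnRNP genes, 24 rbm genes, 30 DEAD-box (ddx) genes and 7 DEAH-box (dhx) genes. The choice rested on names, so it took in helicases and RNA-binding proteins that work outside splicing and left out splicing factors with other names, which are given at the end.

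Introns are removed by the spliceosome, which is assembled on each pre-mRNA from small nuclear RNAs held in protein particles. The Sm and Lsm rings form the cores of these particles, SF3 and U2AF proteins mark the branch site and the 3′ splice site, and Prp factors carry the complex through assembly and catalysis. SR and hnRNP proteins bind exons and introns and set which splice sites are used, while DEAD-box and DEAH-box helicases remodel RNA and protein complexes in splicing, mRNA export, translation and ribosome assembly. Dominant mutations in several Prp factor genes cause retinitis pigmentosa, a degeneration of photoreceptors, in people.

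Wild-type SciH zebrafish embryos, an outbred line, were treated from 48 to 75 hours postfertilization (hpf) with 0.3 µM all-trans retinoic acid (RA) or with its carrier alone, 0.1% dimethylsulfoxide (DMSO, controls). Embryos of 3 clutches were divided so that each clutch supplied a DMSO and an RA pool of 64 eyes. The sample numbers 1, 3 and 4 in the labels were read as these clutches, which the labels do not state. The amplified RNA of every pool was read on its own GeneChip, an Affymetrix array of zebrafish genes, so that there were 3 arrays for each treatment. The values are signals in the arbitrary units of the array, scaled so that each array has the same trimmed mean of 125. Where signals of several pools are listed, they are given in the order of clutches 1, 3 and 4.

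The deposited table held 15617 probe sets, and 67.2% to 70.0% of them exceeded the background of 13.2, the highest signal of the control probe sets without a target. The eye label was checked with marker genes, and 11 of 11 photoreceptor genes and 4 of 4 lens genes were above background on all arrays. These are counts of measured genes, from 16 listed for photoreceptors and 14 for lens. Also above background were 13 of 14 muscle, 11 of 11 skin, 7 of 10 blood cell and 10 of 10 brain neuron genes. Presence alone thus cannot tell eyes from eyes with other tissue. The muscle genes did not move one way. Of the 14, 8 had a higher and 6 a lower mean in RA, with a median log2 fold change of 0.14. The groups separated for 4 in each direction, beside 7.18% of all genes with RA higher and 10% with RA lower. Past the false discovery rate (FDR) of 10% used throughout were 2, the parvalbumin genes pvalb1 and pvalb2, both lower. The summed signal of the 14, in which the actin gene actc1b weighs most, was 4160 to 5370 in the DMSO pools and 3328 to 4028 in the RA pools. Of the 10 blood cell genes 4 were higher and 6 lower, with a median of -0.04 and 0 past the FDR, and their summed signal of 2702 to 3429 in DMSO and 2060 to 2605 in RA was mostly that of the globin genes hbae3 and hbbe2, with the myeloid gene lyz separated in the other direction. Past the FDR were also 1 of 4 lens genes, higher in RA, and 1 of 7 cartilage and mesenchyme genes, lower in RA. The part of these tissues in the results was not tested. The DMSO array of clutch 1 stood apart, with a 3′ to 5′ signal ratio of the acta1 control of 64.5. That ratio was 20.2 for DMSO of clutch 3 and 12.0 for DMSO of clutch 4. With RA it was 7.65, 11.7 and 5.30, so every RA array lay below every DMSO array. The same ratio of the gapdh control overlapped between treatments, at 1.48 to 2.58 with DMSO against 1.32 to 1.75 with RA. The part of the acta1 difference in the results was not tested. In such pools, a loss of cells of a type and less RNA per cell cannot be told apart.

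None of the 137 genes differed between RA and DMSO at an FDR of 10% by limma with Benjamini-Hochberg adjustment over all probe sets, and SAM, the method of the study, also called 0. Over all probe sets, limma called 131 of 15555, or 0.842% (45 with clutch as a block), and by gene it called 85 of 8793, or 0.967%. Of the 137 genes 3, or 2.19%, were past an unadjusted p of 0.05, each with a lower signal in RA. Among all genes 4.37% passed that threshold with a higher and 5.29% with a lower signal in RA. None of the 137 was thus past it in the higher direction.

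The members sat close to 0. Their median log2 fold change was -0.02, as was that of all genes, and 57 of 137 (41.6%) were higher in RA beside 46.3% of all genes. Without the DMSO array of clutch 1 the medians were -0.10 for the members and -0.04 for all genes, and 40 members (29.2%) were higher in RA beside 44.3% of all genes. Leaving out the DMSO array of clutch 4 instead gave medians of -0.02 for both, with 63 members (46.0%) higher in RA beside 47.3% of all genes. Of the 125 members above background on all 6 arrays, the median size of the log2 fold change was 0.11, beside 0.16 for all genes above background, while the median standard errors were 0.20 and 0.21. A log2 fold change larger than 0.5 in size was seen for 8 of these 125, all of them lower in RA and 6 of them helicases. Without the DMSO array of clutch 1 it was that large for 3 of the 8. The share of all genes with a change of that size is not given here, so the 8 cannot be called many or few. The 95% interval of the fit lay within a 2-fold difference in either direction for 117 of 137 members and within 1.5-fold for 54.

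**Figure D1:**
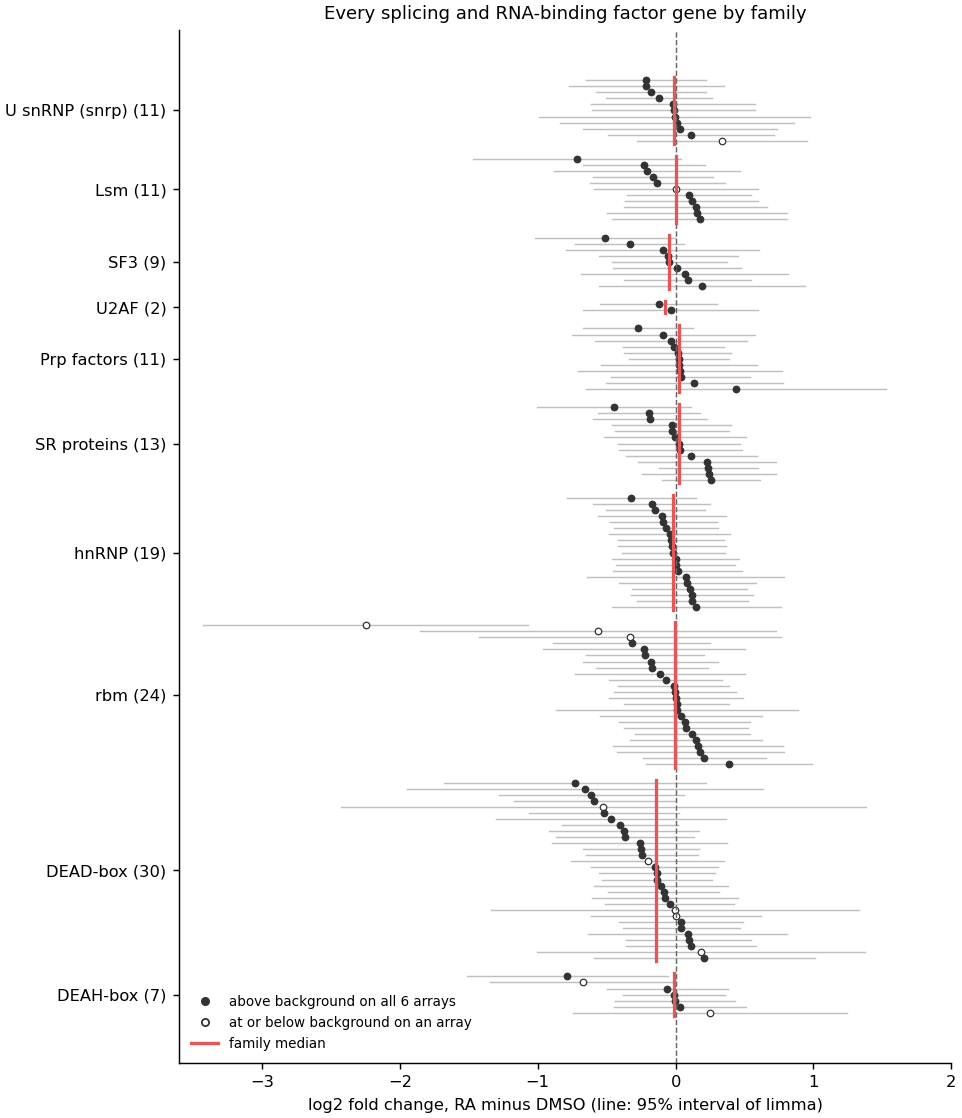
Log2 fold change, RA minus DMSO, of each of the 137 genes, 1 row per gene sorted within its family, with the 95% interval of limma as a grey line and the family median as a red line. Filled points were above background on all 6 arrays. The medians of 9 families lie within 0.1 of 0, and that of the DEAD-box genes is -0.14.

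The groups separated completely, with every RA pool beyond every DMSO pool, for 2 members with RA higher (1.46%, beside 7.18% of all genes) and for 15 members with RA lower (10.9%, beside 10% of all genes). The share with RA lower was near that of all genes, and the share with RA higher was below it. The sign was the same in all 3 clutches for 40 members, of which 8 were higher and 32 lower in RA, beside 15.6% of all genes that were higher and 20.5% that were lower in all clutches.

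Much of the spread among the members lay between arrays of the same treatment. The DMSO array of clutch 1 had the lowest of the 6 signals for 41 members (29.9%) and the highest for 39 (28.5%), beside 26.4% and 29.0% of all genes. The DMSO array of clutch 4 had the highest signal for 45 members, or 32.8%, beside 19.0% of all genes, and the remaining arrays had it for 11 to 17. Within clutch 4 only 39 of 137 members (28.5%) were higher in RA, beside 46.6% of all genes, and the share was 48.2% in clutch 1 and 45.3% in clutch 3. Families differed in which array was extreme, with the DMSO array of clutch 1 lowest for 6 of 11 U snRNP genes and 6 of 11 Prp factors but highest for 15 of 30 DEAD-box genes. The DMSO array of clutch 4 was highest for 10 of 11 U snRNP genes and 8 of 11 Lsm genes.

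**Figure D2:**
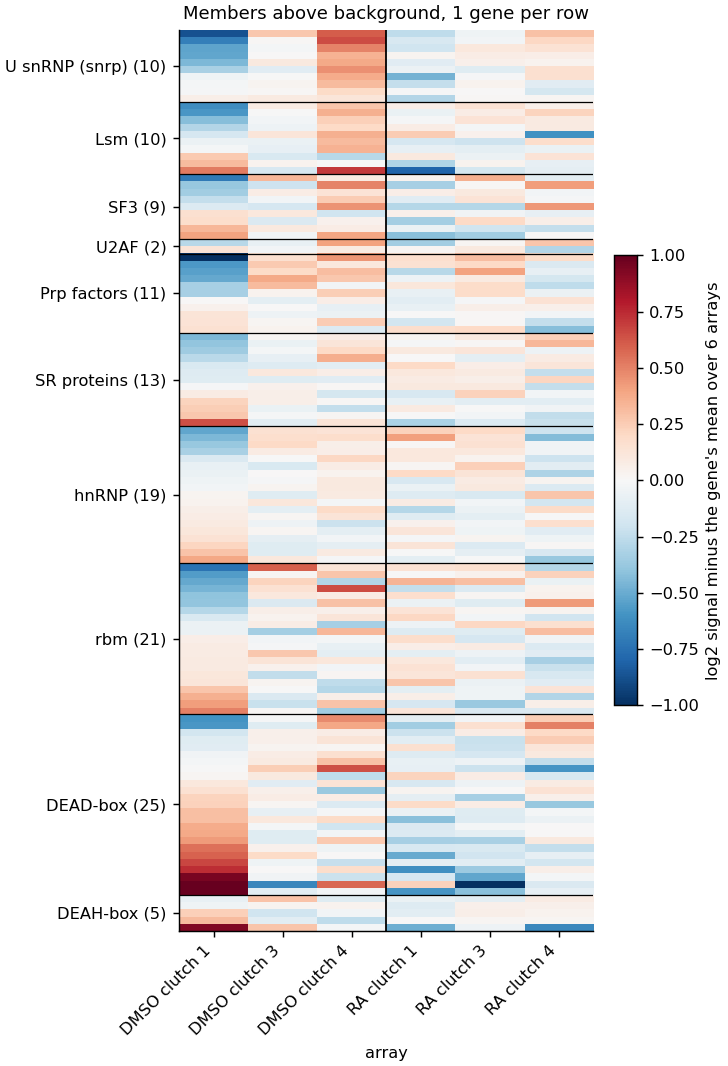
Signal of each of the 125 members above background (rows, by family and sorted by the first column) on the 6 arrays (columns), as the log2 difference from the mean of that gene over the arrays. Colours end at 1 in either direction. The first column, DMSO of clutch 1, is blue for many U snRNP and Prp genes and red for many DEAD-box genes, and no family shows a clean step at the line between DMSO and RA.

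The U snRNP genes encode the Sm ring and proteins particular to single particles. The median log2 fold change of the 11 genes was -0.02, 4 were higher in RA, and none was past an unadjusted p of 0.05. By clutch, the medians were 0.26, -0.00 and -0.32, so clutches 1 and 4 lay on opposite sides. Without the DMSO array of clutch 1 the family median was -0.22, with 1 gene higher in RA. Without the DMSO array of clutch 4 it was 0.21, with 7 of the 11 genes higher. The most precise of them, snrpg, a subunit of the Sm ring, had DMSO signals of 359.7, 366 and 414 and RA signals of 359.5, 365 and 322. In clutches 1 and 3 its RA and DMSO pools were nearly equal, and its log2 fold change was -0.12 ± 0.16 (SE, adjusted p = 0.922).

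The gene with the lowest log2 fold change of the family was snrpd1, another Sm ring subunit, with 869, 898 and 1102 in DMSO and 747, 905 and 815 in RA. The groups overlapped, and the value was -0.21 ± 0.18 (SE, adjusted p = 0.847), or -0.11 without the DMSO array of clutch 4. Only snrpe, also of the ring, had all RA pools lower, at 586, 722 and 727 against 747, 763 and 782 in DMSO. The log2 fold change, -0.18 ± 0.17 (SE, adjusted p = 0.87), was close to its standard error and was -0.08 without the RA array of clutch 1.

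The spread among DMSO pools was wider for snrpc, the C protein of the U1 particle, at 137, 223 and 347, than among its RA pools at 197, 216 and 254. The RA pools all lay between the lowest and the highest DMSO pool. Its log2 fold change of 0.01 ± 0.35 (SE) became -0.33 without the DMSO array of clutch 1. The same order of DMSO pools was seen for snrpb, an Sm ring protein, with 79.3, 175 and 221 in DMSO and 121, 140.3 and 177 in RA, and for snrpa, the A protein of U1, with 131, 188 and 239 against 192, 198 and 196. One member, snrpd2, had a probe set that was below background on every array.

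The Lsm proteins include rings that bind U6 RNA in the nucleus or start mRNA decay in the cytoplasm. Their median was 0.00, with 6 of 11 higher in RA and none past an unadjusted p of 0.05. For lsm7, a subunit shared by both rings, the RA pools gave 499, 495 and 505 and the DMSO pools 521, 498 and 672. The RA pools lay close together, the DMSO pool of clutch 4 was the only high one, and the log2 fold change was -0.16 ± 0.18 (SE, adjusted p = 0.904), or -0.03 without that array. The nuclear ring subunit lsm8 had 177, 264 and 339 in DMSO and 253, 279 and 309.9 in RA. Its RA pools lay inside the DMSO range.

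The lowest of the family was lsm11, which belongs to the U7 particle that processes the ends of histone mRNAs made in dividing cells. Its signals were 36.9, 23.1 and 42.1 in DMSO and 14.8, 22.8 and 24.2 in RA. The RA pool of clutch 4 was above the DMSO pool of clutch 3, so the groups overlapped. Its log2 fold change was -0.71 ± 0.31 (SE, adjusted p = 0.593), with clutch values of -1.32, -0.02 and -0.80.

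The SF3 proteins belong to the U2 particle and hold it at the branch site. Their median was -0.04, with 4 of 9 higher in RA and none past an unadjusted p of 0.05. Signals of sf3b1, the large subunit that encloses the branch site helix, were 383, 369 and 299 in DMSO and 355, 334 and 324 in RA. They overlapped, with a log2 fold change of -0.04 ± 0.17 (SE, adjusted p = 0.982), while the other probe set of sf3b1 gave 0.26. The SF3A subunit sf3a3 had the smallest standard error of the family and lower values in all RA pools, at 111, 101 and 98.4 against 146, 124 and 122 in DMSO.

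Within each clutch the RA pool of sf3a3 was lower by a similar amount, with log2 differences of -0.39, -0.29 and -0.31. The log2 fold change was -0.33 ± 0.16 (SE, 95% interval -0.73 to 0.06, adjusted p = 0.658). The lowest value of the family was that of sf3b4, an SF3B subunit that contacts RNA next to the branch site, with 89.3, 66.0 and 88.5 in DMSO and 50.5, 53.0 and 67.5 in RA. All clutches had RA lower, the highest RA pool was just above the lowest DMSO pool, and the log2 fold change was -0.51 ± 0.21 (SE, adjusted p = 0.568).

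U2AF is a dimer that recognizes the 3′ splice site. Its small subunit u2af1 gave 243, 279 and 389 in DMSO and 231, 297 and 357 in RA. Its large subunit u2af2b gave 688, 615 and 665 in DMSO and 635, 670.5 and 512 in RA. Both overlapped between groups, and in both the range of each group was wider than the gap between the group means. The log2 fold changes were -0.04 ± 0.26 and -0.12 ± 0.18 (SE), while the other probe set of u2af2b gave 0.27.

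The 11 Prp factors had a median of 0.02, with 7 higher in RA and none past an unadjusted p of 0.05. Values of prpf39, named after a yeast protein of the U1 particle and the most precise of the family, were 172, 168 and 158 in DMSO and 159, 174 and 173 in RA. Its 95% interval of the log2 fold change ran from -0.34 to 0.39. The core of the catalytic centre, prpf8, had 140.3, 129 and 115 in DMSO and 143, 145 and 94.0 in RA. The clutch 4 pools were the lowest of both groups, and the log2 fold change was -0.03 ± 0.23 (SE, adjusted p = 0.994).

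The highest log2 fold change of all members was that of prpf31, which holds the tri-snRNP together, at 0.44 ± 0.45 (SE, adjusted p = 0.89). Its RA pools gave 129, 142 and 131 and its DMSO pools 47.8, 129 and 157. Only the DMSO pool of clutch 1 was far from the rest, and without that array the log2 fold change was -0.08. Together prpf3, prpf4, prpf6, prpf8 and prpf31, whose human orthologues are mutated in retinitis pigmentosa, were all above background on all arrays, with log2 fold changes from -0.09 to 0.44 and a median of -0.01. None of the 5 had groups that separated.

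Among the Prp factors only prpf38b, named after a yeast factor of spliceosome activation, had all RA pools below all DMSO pools. It gave 505, 464 and 546 in DMSO and 404, 462 and 389.6 in RA. The pools of clutch 3 were nearly equal, and the log2 fold change was -0.27 ± 0.16 (SE, adjusted p = 0.758).

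The SR proteins bind exonic enhancers and recruit the spliceosome. Their median was 0.02, with 7 of 13 higher in RA and none past an unadjusted p of 0.05. The 2 members whose groups separated with RA higher were both of this family. The first, srsf1b, gave 768, 767 and 769.8 in DMSO and 882, 868 and 966 in RA. Its DMSO pools were nearly identical (768 ± 1.42, SD, n = 3), and the RA pools averaged 905 ± 53.2 (SD, n = 3). The log2 fold change was 0.24 ± 0.15 (SE, adjusted p = 0.77), but the other probe set of srsf1b gave -0.03.

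The second, srsf6b, gave 558, 565 and 577 in DMSO and 711, 648 and 673 in RA. Every RA pool was higher than every DMSO pool, and the log2 fold change was 0.26 ± 0.15 (SE, 95% interval -0.10 to 0.61, adjusted p = 0.734). Its paralogue srsf6a separated in the other direction, with 752, 670.4 and 648 in DMSO and 610.0, 598 and 597 in RA. For srsf6a the log2 fold change was -0.20 ± 0.15 (SE, adjusted p = 0.833), or -0.13 without the DMSO array of clutch 1, and the other 2 probe sets of that gene gave -0.05 and 0.02 with overlapping groups.

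The log2 fold change of srsf6b exceeded that of srsf6a by 0.45, with a two-sided exact permutation p of 0.1, the smallest that free exchange of 3 pools against 3 allows. Exchange within clutches alone gave an exact p of 0.25, the smallest it can give. Both p-values follow from the separation of these genes in opposite directions and add no support to it. The pair was 1 of 16 paralogue pairs compared. The paralogue of srsf1b, srsf1a, gave 617, 704 and 961 in DMSO and 749, 697 and 789 in RA. Its groups overlapped at a log2 fold change of -0.01 ± 0.21 (SE), and its difference from srsf1b of 0.24 had an exact permutation p of 0.3.

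The lowest of the SR genes was srsf10b, whose orthologue in mammals represses splicing when it is dephosphorylated. It gave 125, 74.7 and 87.8 in DMSO and 64.4, 73.1 and 68.8 in RA. The groups separated, but in clutch 3 the pools were nearly equal, and the log2 fold change was -0.45 ± 0.23 (SE, adjusted p = 0.689). Without the DMSO array of clutch 1, the highest pool, it was -0.24.

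**Figure D3:**
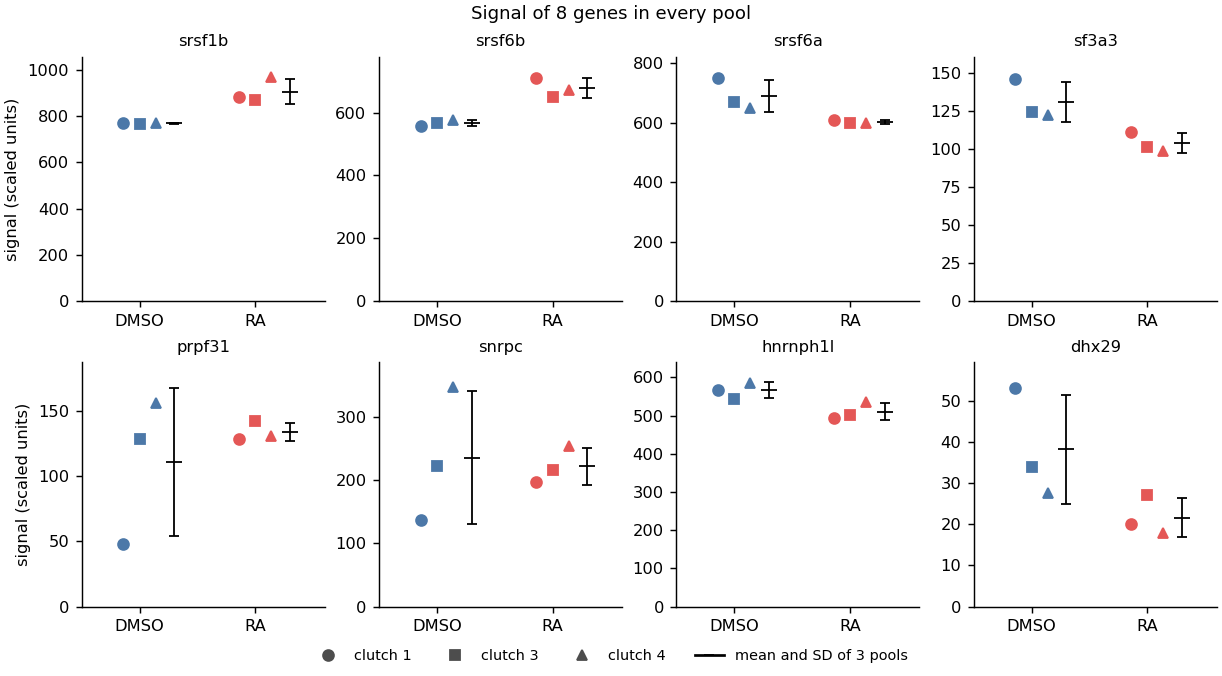
Signal, in scaled units on an axis from 0, of 8 genes in the 3 DMSO and the 3 RA pools, with the symbol giving the clutch and the bar the mean and SD. The groups separate for srsf1b and srsf6b with RA higher and for srsf6a, sf3a3, hnrnph1l and dhx29 with RA lower, while for prpf31 and snrpc the DMSO pools spread over the range of the RA pools and beyond it.

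The hnRNP proteins coat pre-mRNA and often oppose SR proteins. All 19 were above background on all arrays, their median was -0.02, 7 were higher in RA, and none was past an unadjusted p of 0.05. Their 95% intervals lay within 1.5-fold for 15 of 19. For hnrnph1l, a member of the H group that binds G-rich elements, the signals were 567, 545 and 587 in DMSO and 494, 502 and 536 in RA. All RA pools were lower, and the log2 fold change was -0.15 ± 0.15 (SE, adjusted p = 0.884).

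The lowest hnRNP gene was hnrnpul1, a relative of the scaffold protein hnRNP U. Its DMSO pools gave 128, 105 and 96.9 and its RA pools 91.4, 97.1 and 75.0. RA was lower in each clutch but the groups overlapped narrowly, and the log2 fold change was -0.32 ± 0.19 (SE, adjusted p = 0.757), or -0.21 without either the DMSO array of clutch 1 or the RA array of clutch 4.

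The gene hnrnpa0b, of the A group that binds AU-rich elements, was read by 4 probe sets that did not give the same answer. Its brightest, from UniGene cluster Dr.1149, gave 1608, 1458 and 1300.3 in DMSO and 1558, 1479 and 1695 in RA. That is a log2 fold change of 0.12 ± 0.17 (SE, adjusted p = 0.929) with overlapping groups. Another, from cluster Dr.17008, gave 72.9, 110.9 and 87.3 in DMSO and 37.3, 52.7 and 43.0 in RA.

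At the Dr.17008 probe set every RA pool was below every DMSO pool, and the log2 differences in clutches 1, 3 and 4 were -0.97, -1.07 and -1.02. The log2 fold change was -1.02 ± 0.23 (SE, adjusted p = 0.208), which did not pass the FDR. It passed with an intensity-dependent variance (adjusted p = 0.0784), with array weights (0.0433) and among probe sets above background alone (0.0764), and in the other limma alternatives the adjusted p ran from 0.101 to 0.535, while SAM did not call it. The other 2 probe sets gave 0.04 and 0.24. The log2 ratio of the Dr.17008 probe set to the brightest probe set was lower by 1.14 in RA, with a two-sided exact permutation p of 0.1 by free exchange of the pools and 0.25 by exchange within clutches, each the smallest it can give. The probe set was singled out after its values were seen, and what part of the transcript it reads was not examined.

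**Figure D4:**
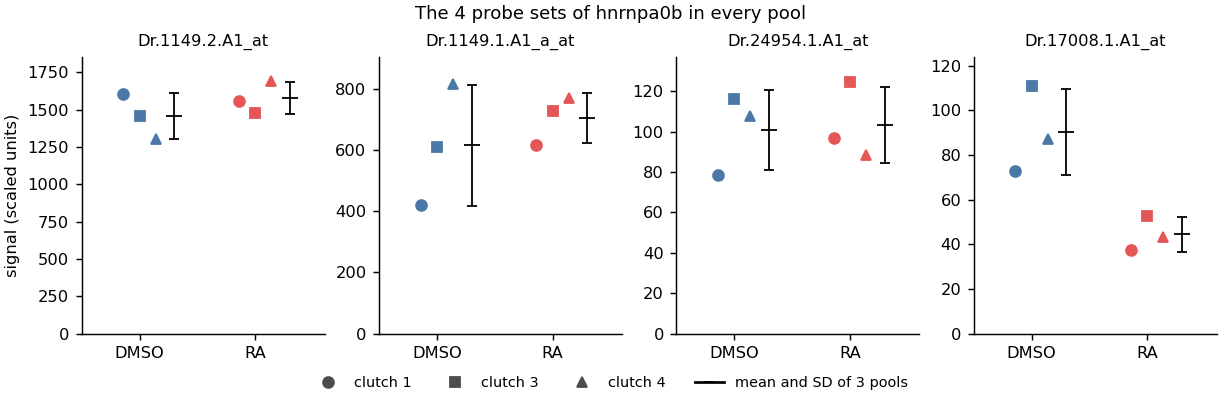
Signal, in scaled units on an axis from 0, of the 4 probe sets named hnrnpa0b in the DMSO and RA pools, with the symbol giving the clutch and the bar the mean and SD of 3 pools. The groups separate only in the panel of the Dr.17008 probe set, where RA pools lie at 37.3 to 52.7 and DMSO pools at 72.9 to 110.9.

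The rbm genes share an RNA recognition motif and not a function. Their median was -0.00, with 12 of 24 higher in RA. The most precise, rbm39a, a splicing coactivator, gave 203, 190.3 and 182 in DMSO and 201, 203 and 175 in RA. Its log2 fold change was 0.01 ± 0.16 (SE, adjusted p = 0.998). Its paralogue rbm39b was the highest of the family, with 136, 228 and 159 in DMSO and 247, 240.4 and 187 in RA.

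Within each clutch rbm39b was higher in RA, the DMSO pool of clutch 3 lay within the RA range, and the log2 fold change was 0.39 ± 0.25 (SE, adjusted p = 0.776), with 0.23 and 0.60 when the DMSO array of clutch 1 or of clutch 3 was left out. A dimmer probe set of rbm39b gave 65.1, 106.7 and 82.5 in DMSO and 117.3, 125.6 and 117.4 in RA. There the groups separated, at 0.53 ± 0.22 (SE, adjusted p = 0.568). The exon junction complex subunit rbm8a gave 548, 818 and 977 in DMSO and 808, 830.5 and 946 in RA, with the DMSO pool of clutch 1 the lowest.

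The smallest p of all members belonged to rbm33b (adjusted p = 0.187). Its signals were 3.12, 2.33 and 1.87 in DMSO and 0.278, 0.453 and 1.01 in RA. No value was well above background in either group, so no fold is given. The same held for all 6 arrays of rbm44 and rbm46, and of the helicases ddx4 and dhx57 and of lsm14b.

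All but 2 of the 37 helicases were placed in 3 groups, each named for the role of most of its genes. The third group also holds ddx20 and ddx28, whose known roles lie outside its name. Their log2 fold changes were -0.26 and 0.04, and another placement would change the group counts and medians. The 12 helicases of the spliceosome and mRNA export had a median log2 fold change of -0.01, with 5 higher in RA. The spliceosome disassembly helicase dhx15 gave 367, 387 and 388 in DMSO and 347, 393 and 392 in RA. Its 95% interval of the log2 fold change ran from -0.38 to 0.35. Values of ddx39b, which loads factors for splicing and export, were 190.4, 202 and 158 in DMSO and 219, 198 and 169 in RA.

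Within this group ddx19a, which releases export proteins from mRNA at the nuclear pore, was the only gene whose groups separated. It gave 23.4, 27.8 and 36.8 in DMSO and 22.2, 20.2 and 15.6 in RA, all above the background of 13.2 but low. The clutches differed widely, with log2 differences of -0.07, -0.46 and -1.23. The log2 fold change was -0.59 ± 0.24 (SE, adjusted p = 0.567), and its paralogue ddx19b had -0.38 ± 0.22 (SE, adjusted p = 0.755) with overlapping groups. The other probe set of ddx19b gave -0.11.

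The 12 helicases of ribosome assembly, whose roles are mostly known from yeast, had a median log2 fold change of -0.32, and 11 of 12 were lower in RA. These counts are a description, and the group was not tested as a list. In the fit without a clutch term none was past an unadjusted p of 0.05. With clutch as a block only ddx52 was past that threshold, and it was not past the FDR. The log2 differences of ddx52 in clutches 1, 3 and 4 were -0.83, -0.43 and -0.72. Its pools differed widely between clutches, so its groups overlapped, at -0.66 ± 0.53 (SE, fit without a clutch term). The groups separated with RA lower for 4, ddx18, ddx31, ddx54 and ddx56, beside 10% of all genes. The summed signal of the 12 was 1533, 995 and 1034 in DMSO and 819, 809 and 997 in RA.

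The values of ddx18, needed to build ribosomal subunits, were 267, 203 and 178 in DMSO and 125, 156 and 168 in RA. The groups separated at a log2 fold change of -0.52 ± 0.22 (SE, adjusted p = 0.585). For ddx56, a large subunit factor, the DMSO pools gave 69.4, 60.6 and 64.5 and the RA pools 42.3, 51.7 and 54.1. Every RA pool was lower, at -0.40 ± 0.17 (SE, adjusted p = 0.592).

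The lowest log2 fold change in the group was that of ddx27, also of the large subunit, with 337, 134 and 141 in DMSO and 95.5, 107 and 136 in RA. The DMSO pool of clutch 1 was far above all others, and the log2 fold change was -0.73 ± 0.39 (SE, adjusted p = 0.708), or -0.30 without that array. Also ddx51 had its highest value in that pool, with 118, 70.9 and 80.0 in DMSO and 46.2, 55.0 and 73.9 in RA, and its log2 fold change of -0.61 was -0.40 without it. The most precise of the group, ddx55, gave 56.2, 60.7 and 64.2 in DMSO and 52.5, 51.3 and 61.6 in RA. There the groups overlapped at -0.13 ± 0.16 (SE). The one gene with a higher mean in RA, dhx37, was above background in 1 DMSO and 3 RA pools.

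The DMSO array of clutch 1 was the highest of 6 for 8 of these 12 helicases, and the clutch medians were -0.54, -0.30 and -0.07. Without that array the median was -0.24 and all 12 were lower in RA. Markers of DNA replication and division were also lower in the RA pools, with 12 of 13 measured genes lower in RA, a median of -0.58, and 6 past an unadjusted p of 0.05 but 0 past the FDR. The groups separated for 8 of them, among them mcm2, at 306, 129 and 162 in DMSO and 59.8, 86.8 and 85.1 in RA. Among all genes 5.29% were past an unadjusted p of 0.05 with RA lower, and 10% separated with RA lower.

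The summed signal of the 13 markers was 2658 to 4041 in DMSO and 1989.9 to 2581 in RA. Of them 12 were above background on all arrays, and mcm6 was at or below it on every array. The clutch medians of the markers were -0.55, -0.25 and -0.63, beside -0.54, -0.30 and -0.07 for the ribosome assembly helicases. The part of the markers in the values of these helicases and of lsm11 was not tested.

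**Figure D5:**
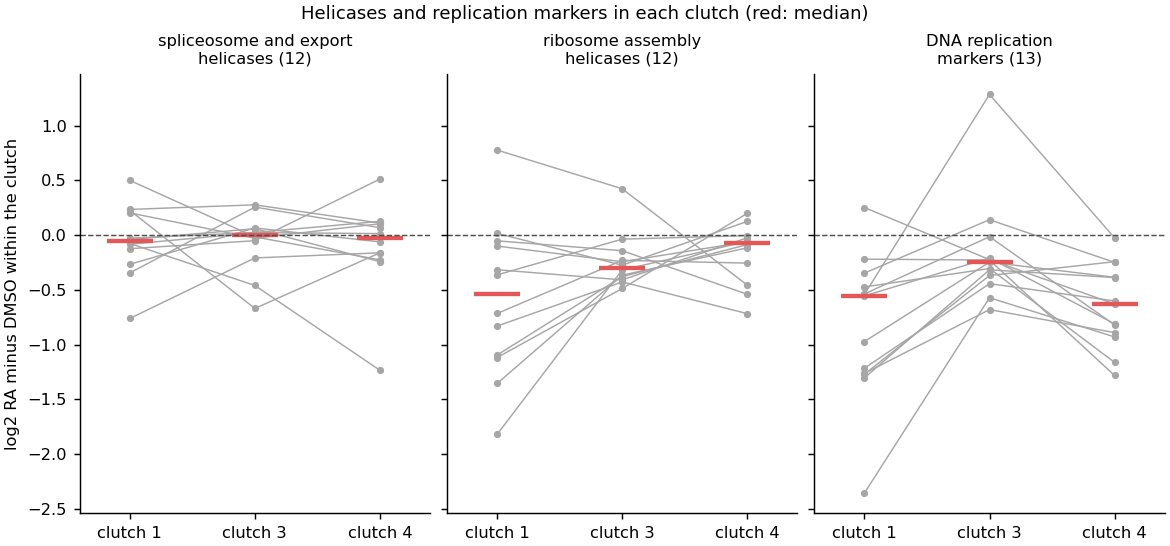
Log2 difference between the RA and the DMSO pool of each clutch for the helicases of the spliceosome and export, those of ribosome assembly and the DNA replication markers, with a line joining the values of 1 gene and red bars at the medians. The medians of the first group are near 0 in each clutch, those of the second are -0.54, -0.30 and -0.07, and those of the markers are -0.55, -0.25 and -0.63.

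The third group, named for translation, mRNA decay, the germ line and immunity, held 11 helicases, ddx20 and ddx28 included. It had a median of -0.15, with 3 higher in RA and 7 above background on all arrays. The lowest log2 fold change of all members above background was that of dhx29, which helps ribosomes scan structured leaders. It gave 53.1, 33.8 and 27.5 in DMSO and 19.97, 27.0 and 17.9 in RA. The highest RA pool was just under the lowest DMSO pool, and the DMSO mean was 38.1 ± 13.3 against 21.6 ± 4.76 in RA (SD, n = 3).

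The log2 fold change of dhx29 was -0.79 ± 0.30 (SE, 95% interval -1.51 to -0.06, adjusted p = 0.536), with clutch values of -1.41, -0.33 and -0.62. Without the DMSO array of clutch 1 it was -0.52. The groups also separated for ddx61, a relative of the decapping activator ddx6, with 640.1, 452 and 424 in DMSO and 393, 395 and 371 in RA. Its log2 fold change was -0.36 ± 0.21 (SE, adjusted p = 0.731), or -0.18 without the DMSO array of clutch 1, while a second probe set of that gene gave -0.00.

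Several of these genes have a paralogue named with a final a or b, and 16 such pairs, snrpa and snrpb not among them, had both genes above background. The sign of the log2 fold change was the same in 8 pairs and opposite in 8. No pair had both genes past an unadjusted p of 0.05 in opposite directions. Only for srsf6a with srsf6b did the difference reach the smallest exact permutation p of 0.1 by free exchange, which follows from their separation in opposite directions. Of 22 genes with several probe sets above background, 11 had one sign in all of them and 11 had both, and in 20 the log2 fold changes lay within 0.5 of each other. The exceptions were hnrnpa0b and lsm12a, whose probe sets gave 0.18 and -0.39. Of the 181 probe sets, 5 were past an unadjusted p of 0.05, beside 1362 of all 15555 tested, and 0 were past the FDR. Besides those already named, the 5 included a probe set of rbm46 not well above background.

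Splicing genes whose names the choice did not match were read in the same fit. Of 99 listed, 76 were measured, with a median log2 fold change of -0.01, 35 higher in RA, 0 past the FDR by limma or SAM, and 4 past an unadjusted p of 0.05, of which 1 (1.32%) was higher and 3 (3.95%) were lower in RA, beside 4.37% and 5.29% of all genes. These shares rest on 1 and 3 genes, and no difference from all genes was tested. Of those 4, srpk1b was higher in RA but below background on every array. The 3 lower ones were snu13b, a protein of both the U4 particle and the nucleolus, gpkow, a spliceosome protein, and ppil3, a spliceosomal prolyl isomerase.

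The signals of snu13b were 609, 544 and 720.2 in DMSO and 403, 404 and 499 in RA, at a log2 fold change of -0.52 ± 0.19 (SE, adjusted p = 0.508). Those of ppil3 were 104, 73.3 and 75.0 in DMSO and 55.6, 56.0 and 52.4 in RA, at -0.61 ± 0.20 (SE, adjusted p = 0.441). In both genes every RA pool was below every DMSO pool.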

How the data were processed

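RNA of 6 pools of eyes was measured on 1-colour arrays. The authors deposited 1 signal intensity per probe set and array, on a linear scale from 0.008 to 5823 with a 2% trimmed mean of 125 on every array, and the summary method behind these intensities is not given in the sources used here; the RMA values of the study's methods are on another scale and were not used here. The table has 15617 probe sets. Signals were set to log2, 62 control probe sets were left out, and 15555 were tested with limma 3.58.1 in R 4.3.3 (lmFit, eBayes, two-sided, Benjamini-Hochberg over all of them, 10% FDR), with standard errors and 95% intervals from the same fit. The number of arrays limits the precision. Gene names came from the platform annotation, in which 10802 probe sets had 1 symbol, 135 several and 4618 none, and all 137 members had the same symbol in the RefSeq gene table; 1 probe set that names prpf8 beside another gene was not used. Probe sets whose names end in _a_at, _s_at or _x_at can read related transcripts.

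The members and gene lists were chosen with earlier results of these data known. The rule for named genes took members past the FDR, the highest and lowest of each family and the 5 highest and lowest of all among those past an unadjusted p of 0.05 with 1 sign in all clutches, and the member with the smallest standard error of each family. It gave rbm33b, dhx29, ddx19a, snrpg, lsm7, sf3a3, u2af2b, prpf39, srsf6b, hnrnph1l, rbm39a, ddx55 and dhx15. All other genes with values were chosen after these were seen.

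Each clutch was divided between the treatments, per the study's methods. The sample numbers 1, 3 and 4, which the labels give to 1 DMSO and 1 RA sample each, were read as these clutches. On this reading the arrays are paired. Exact permutation tests exchanged arrays freely unless within-clutch exchange is named. Deviations from the group means correlated within clutches 1, 3 and 4 at 0.16, 0.42 and 0.28 over 9791 probe sets. The fit reported had no clutch term, since the methods name none; the paired fit with clutch as a replicate block called 45 probe sets in place of 131. Alternatives were this block, SAM with its 20 relabelings, a variance trend, array weights, quantile normalization, median centring, a filter on background, 16 added before log2, averaging probe sets by gene, other FDR levels and leaving out each array. The fits were also run on simulated arrays with known changes in brighter probe sets and no clutch effect. Those runs therefore cannot show how the fits do with dim probe sets or paired arrays.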

Additional observations from a re-analysis of the deposited data

How the results depend on the processing

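Over all probe sets, limma called 131; the clutch as replicate block gave 45, SAM 145, a variance trend 274, array weights 593, 16 added before log2 232, an FDR of 5% 73 and of 20% 291, and leaving out 1 array gave 52 to 117 (74 without DMSO of clutch 3, and 82, 52 and 56 without RA of clutches 1, 3 and 4). Among the members, 0 were called as reported and with any 1 array left out. Of the alternatives run only array weights (1, adjusted p = 0.0347) and an FDR of 20% (1) called any. Both times it was rbm33b, which was below background on every array. Among the other splicing genes 0 were called, except 1 with array weights and 1 without the DMSO array of clutch 1 (0 to 1 over all left-out arrays). In both it was srpk1b, which was below background on every array. The replicate block changed no other call, and in this balanced design it leaves each log2 fold change, and so the members' median and signs, as they were. It did change which members were past an unadjusted p of 0.05. With the block ddx19a no longer was, while ddx52 and dhx57 were, and dhx57 was below background on every array. The members' median log2 fold change of -0.02 was -0.0974 without the DMSO array of clutch 1 and -0.0974 to -0.0247 over all left-out arrays, with 40 to 63 members higher in RA. Median centring moved the median of all genes from -0.02 to -0.01 and the count of members higher from 57 to 69.

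Of 512 values of 32 single genes under alternatives, 490 kept their sign and call, and 22, in 8 genes, changed sign. Among these were prpf31, whose 0.44 was the highest of all members, and u2af2b at -0.12, while the other 6 lay near 0. Leaving out 1 array at a time gave -0.045 to 0.0456 for dhx15, -0.0843 to 0.772 for prpf31, -0.012 to 0.0655 for prpf39, -0.14 to 0.173 for prpf8, -0.0293 to 0.0772 for rbm39a, -0.442 to 0.298 for snrpb and -0.331 to 0.337 for snrpc, and the DMSO array of clutch 1 alone turned prpf31. Median centring gave 0.00197 for dhx15 and 0.0106 for snrpb, array weights 0.0753 for prpf8, -0.0938 for snrpc and 0.0113 for u2af2b, and quantile normalization -0.00611 for snrpc. The 32 did not hold every gene with values here, and others also changed sign. Without the DMSO array of clutch 1, snrpa went from 0.112 to -0.12, lsm8 from 0.155 to -0.0966 and rbm8a from 0.178 to -0.0564. Without the DMSO array of clutch 4, u2af1 went from -0.0358 to 0.158 and srsf1a from -0.00654 to 0.175. The cause was not tested.

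Each group had 3 pools, no member passed the FDR at any size of log2 fold change, and standard errors differed. They were 0.21 for sf3b4 at -0.51 and 0.22 for ddx18 at -0.52, but 0.35 for ddx49 at -0.47 and 0.45 for prpf31 at 0.44. Members at or under the background of 13.2 on all arrays were given no fold, and 12 members were at or under it on at least 1 array.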

Other observations

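RNA-binding regulators of tissue-specific splicing and mRNA stability, whose names the choice did not match, were read in the same fit. Of 74 listed, 51 were measured, 48 of them above background on all arrays, with a median log2 fold change of 0.01, 27 higher in RA and 0 past the FDR by limma. Only ptbp1b, a polypyrimidine tract repressor of neuronal exons, was past an unadjusted p of 0.05, or 1.96% with RA lower beside 5.29% of all genes. It gave 162, 172 and 172 in DMSO and 131, 139.6 and 121 in RA, so that every RA pool was lower, at a log2 fold change of -0.37 ± 0.15 (SE, adjusted p = 0.565). Its paralogue ptbp1a was at -0.08 ± 0.15 (SE, adjusted p = 0.945).

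The clutch medians of these 51 genes were 0.27, -0.04 and -0.16, and the DMSO array of clutch 1 had the lowest of the 6 signals for 22 of them. The neuronal RNA-binding protein gene elavl3 was one, with 297, 501 and 606 in DMSO and 580.3, 567 and 677 in RA.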
